A study of Mus musculus with 12 samples.

Results

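Binding of the glucocorticoid receptor (GR) to chromatin was compared between cells given tumour necrosis factor (TNF) ahead of dexamethasone (Dex, a synthetic glucocorticoid) and cells given Dex alone. The comparison rests on 6 of the 12 libraries of the series, the 3 with the title TNFDEX and the 3 with the title DEX. All were made by chromatin immunoprecipitation and sequencing (ChIP-seq) with a rabbit antibody against GR in BWTG3, a mouse hepatoma cell line kept for 24 h in optimem medium without serum. TNFDEX cells received 1000 U/ml of recombinant TNF 1 h before 1 µM Dex, DEX cells received 1 µM Dex, and stimulation lasted 3 h in total, so both groups contained Dex. Libraries titled NI and TNF, made with the same antibody, are used below only to say where a region was also called. The series' design text describes the replicates as biological, and all come from 1 cell line.

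GR is a ligand-activated transcription factor that is held in the cytoplasm by chaperones such as HSP90 and moves to the nucleus once a glucocorticoid binds. There it binds glucocorticoid response elements (GREs), palindromes with a spacer, as a dimer, and it also occupies sites together with other factors such as C/EBP and AP-1. In hepatocytes GR drives genes of gluconeogenesis and amino acid breakdown, and raises target genes such as Fkbp5 and Per1. GR also acts with STAT3 and NF-kB at acute phase genes. TNF signals through its receptors to NF-kB and to the JNK and p38 kinases.

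Each peak list was deposited per library, with a normalized tag count for every peak (reads per 20000000 reads). Peaks of the 6 libraries that shared at least 1 bp were merged into 35189 nuclear regions, typically 177 bp wide (median). A region counted as gained when it was called in all 3 TNFDEX libraries and in none of the 3 DEX libraries, as lost in the opposite case, and as shared when it was called in all 6. The files hold 1 mitochondrial peak in TNFDEX 1, DEX 1 and DEX 2, and 2 in TNFDEX 2, TNFDEX 3 and DEX 3. The highest mitochondrial peak reached 3812, 36247 and 54519 normalized tags in TNFDEX 1 to 3, and 1542, 2268 and 43938 in DEX 1 to 3. The number of mitochondrial peaks thus splits both groups, and main results are also given within libraries that have the same number. What part that difference had in a result was not tested.

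Promoter sequences under a few regions, picked as stated below, are printed first to show the letters these regions covered. They stand for a small part of the results, since 8 of the 233 gained regions lay within 1 kb of a gene start. In RefSeq's GRCm38.p6 table, the 250 bases before the start of a protein-coding gene were searched on both strands for GNACANNNTGTNC (a GRE), TGANTCA (AP-1), TTGCNNAA (C/EBP), TTCNNNGAA (STAT) and the NF-kB motif. Gained regions overlapped 6 such windows, and 3 of them held the C/EBP letters. The C/EBP letters were in 9.08% of all 20998 windows and in 7 of the 53 windows (13.2%) under a shared region. None of the 6 held the GRE letters, which were in 0.362% of all windows and in 7 of the 53 windows (13.2%) that a shared region overlapped. The counts are small and were read after the values had been seen. The 3 gained windows with C/EBP letters, chosen for that, and that of Cxcl1, called in 3 TNFDEX libraries and 1 DEX library, follow. Capitals mark the matches, and each line runs 5′ to 3′ along the gene.
Fgb, chr3:83049864-83050113, minus strand: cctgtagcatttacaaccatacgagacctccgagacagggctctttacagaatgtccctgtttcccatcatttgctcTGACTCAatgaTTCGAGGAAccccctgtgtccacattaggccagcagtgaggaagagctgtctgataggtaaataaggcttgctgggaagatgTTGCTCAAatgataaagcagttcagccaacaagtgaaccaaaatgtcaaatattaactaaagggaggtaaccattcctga
Steap4, chr5:7960222-7960471, plus strand: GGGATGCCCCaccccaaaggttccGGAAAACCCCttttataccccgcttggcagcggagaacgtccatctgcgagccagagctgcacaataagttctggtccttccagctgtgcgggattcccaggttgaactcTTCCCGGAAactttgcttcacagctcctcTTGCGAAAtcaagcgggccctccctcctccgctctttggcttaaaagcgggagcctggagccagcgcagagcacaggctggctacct
Kng2, chr16:23029102-23029351, minus strand: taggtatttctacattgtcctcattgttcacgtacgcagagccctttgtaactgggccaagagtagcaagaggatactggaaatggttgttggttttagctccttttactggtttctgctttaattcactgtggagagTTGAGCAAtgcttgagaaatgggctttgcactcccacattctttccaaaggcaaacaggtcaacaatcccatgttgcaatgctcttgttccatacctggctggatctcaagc
Cxcl1, chr5:90890995-90891244, plus strand: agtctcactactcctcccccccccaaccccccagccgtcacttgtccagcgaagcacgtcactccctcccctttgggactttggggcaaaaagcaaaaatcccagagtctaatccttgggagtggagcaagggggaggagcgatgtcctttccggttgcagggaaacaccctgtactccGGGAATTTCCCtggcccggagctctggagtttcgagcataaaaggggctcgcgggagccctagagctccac

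Fgb encodes the beta chain of fibrinogen, an acute phase protein, and its window held AP-1 letters 173 to 167 bases, STAT letters 162 to 154 bases and C/EBP letters 80 to 73 bases before the start. All 3 matches lay inside the GR region. Steap4 encodes a metalloreductase, and its STAT and C/EBP letters lay inside the region. Of its NF-kB matches, the one farther from the start lay outside the region and the other ran across its edge. Kng2 encodes a kininogen, and its C/EBP letters lay inside the region. Signal was weak at both, with 20.7, 10.2 and 13.6 normalized tags in TNFDEX 1 to 3 at Steap4. At Kng2 it was 14.1, 8.6 and 12.3. Cxcl1 encodes a neutrophil chemokine, and a run of 2 overlapping NF-kB matches 71 to 61 bases before its start lay inside the region.

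For comparison, 3 windows with GRE letters under a shared region were chosen because glucocorticoid induction of these genes is well known or the region was strong, with capitals on the GRE.
Sgk1, chr10:21993640-21993889, plus strand: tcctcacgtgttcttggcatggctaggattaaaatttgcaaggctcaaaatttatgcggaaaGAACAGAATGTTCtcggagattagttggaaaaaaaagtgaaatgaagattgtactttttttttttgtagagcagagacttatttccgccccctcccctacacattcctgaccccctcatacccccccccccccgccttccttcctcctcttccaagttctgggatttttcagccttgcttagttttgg
Mt1, chr8:94178839-94179088, plus strand: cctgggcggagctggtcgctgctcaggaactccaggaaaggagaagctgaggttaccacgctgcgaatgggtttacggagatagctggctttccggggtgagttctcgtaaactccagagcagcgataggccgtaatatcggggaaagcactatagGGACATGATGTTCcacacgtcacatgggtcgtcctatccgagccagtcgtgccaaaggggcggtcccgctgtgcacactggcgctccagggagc
Map3k6, chr4:133240568-133240817, plus strand: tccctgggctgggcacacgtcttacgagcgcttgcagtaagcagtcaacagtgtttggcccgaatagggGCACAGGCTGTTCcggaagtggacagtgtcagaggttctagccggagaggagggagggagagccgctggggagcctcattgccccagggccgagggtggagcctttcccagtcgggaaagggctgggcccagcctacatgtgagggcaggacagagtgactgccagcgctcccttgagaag

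The GRE letters sat 14 bp from the centre of the region at Sgk1 (a kinase gene), 8 bp at Mt1 (metallothionein) and 4.5 bp at Map3k6 (a kinase of the stress pathway). The Map3k6 region had 126.1, 46.1 and 70.3 normalized tags in TNFDEX 1 to 3, against 89.7, 120.8 and 59.9 in DEX 1 to 3. The Sgk1 region had 32.3, 11.3 and 28 in TNFDEX and 28.8, 43.8 and 27.6 in DEX. The Mt1 region had 62.2, 50.4 and 123.4 in TNFDEX and 22.3, 34.7 and 70.2 in DEX. At all 3 genes the groups overlapped, and limma's adjusted p was 0.864 at Map3k6, 0.717 at Sgk1 and 0.765 at Mt1.

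GR peaks were called across the genome in both groups. The number of nuclear peaks was 22589, 8639 and 14041 in TNFDEX 1 to 3, against 10479, 13020 and 12953 in DEX 1 to 3. The TNFDEX libraries included both the longest and the shortest list, so the groups overlapped. Means were 15090 ± 7034 in TNFDEX and 12151 ± 1448 in DEX (SD, n = 3 each). The difference was 0.21 on the log2 scale (two-sided exact permutation test, p = 0.7, where 20 arrangements allow no p below 0.1). Tags in nuclear peaks made up 2.91%, 0.847% and 1.94% of the library in TNFDEX and 1.09%, 1.58% and 1.87% in DEX (log2 difference 0.19, exact permutation p = 0.8). The direction turned with the mitochondrial peak number. TNFDEX had 1.92 times the peaks of DEX in libraries with 1 mitochondrial peak and 0.875 times in those with 2. It also turned without TNFDEX 1, where the log2 difference was -0.13 for peaks and -0.21 for tags, and the tag difference was -0.03 without DEX 1. Total tags per library ran between 48225044 and 51141996 in TNFDEX and between 39228805 and 46425427 in DEX. Every TNFDEX library was thus deeper than every DEX library. What part depth had in the calls was not tested.

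**Figure D1:**
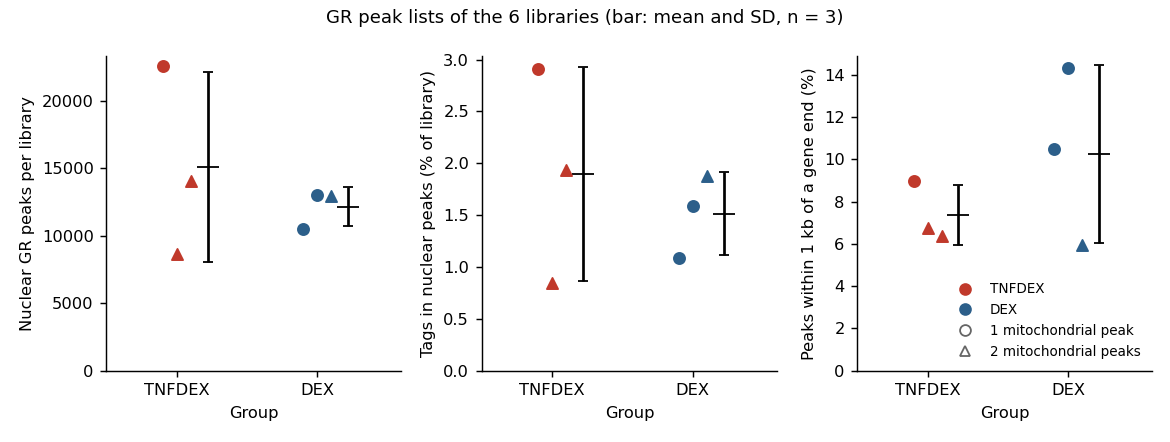
Nuclear GR peaks, tags in nuclear peaks (% of library) and peaks within 1 kb of a gene end (%) in the 3 TNFDEX and 3 DEX libraries. Each point is a library, shaped by its number of mitochondrial peaks, and the bar is the mean and SD. TNFDEX holds both the highest (22589) and the lowest (8639) number of peaks.

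Mean differences in the placement of peaks relative to genes were smaller than the SD of the DEX libraries. They were larger than the SD of the TNFDEX libraries. Peaks within 1 kb of an end of a protein-coding gene made up 8.96%, 6.75% and 6.37% in TNFDEX and 10.5%, 14.3% and 5.95% in DEX. The mean difference was -2.90 percentage points (exact permutation p = 0.4). Peaks over 50 kb from any protein-coding gene averaged 27.2 ± 0.465% in TNFDEX and 25.4 ± 2.36% in DEX (SD, n = 3 each; exact permutation p = 0.4). Peaks inside genes averaged 44.4 ± 0.121% in TNFDEX and 46.3 ± 2.08% in DEX (SD, n = 3 each; exact permutation p = 0.4). All 3 differences had the opposite sign in the libraries with 2 mitochondrial peaks, at 0.605, -1.02 and 0.281 percentage points. Without DEX 2 the difference near gene ends was -0.863 points, without DEX 3 it was -5.06 points.

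Most strong GR regions were found in both groups. Regions called in at least 2 of 3 libraries numbered 11389 in TNFDEX and 9276 in DEX, and 7436 were common to both, which is 65.3% of the TNFDEX and 80.2% of the DEX regions. Among regions called in all 3 TNFDEX libraries, 95.5% of the strongest of 4 equal bins and 29.9% of the weakest were also called in all 3 DEX libraries. Among regions called in all 3 DEX libraries, 94.5% of the strongest bin and 42.5% of the weakest were called in all 3 TNFDEX libraries. None of the 1413 strongest DEX regions lacked a call in every TNFDEX library, and 5 of the 1443 strongest TNFDEX regions lacked one in every DEX library. The share of DEX regions found in TNFDEX was 53.0% without TNFDEX 1, 78.1% without TNFDEX 2 and 53.2% without TNFDEX 3. In these settings both remaining TNFDEX libraries had to call a region, which is stricter than 2 of 3.

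**Figure D2:**
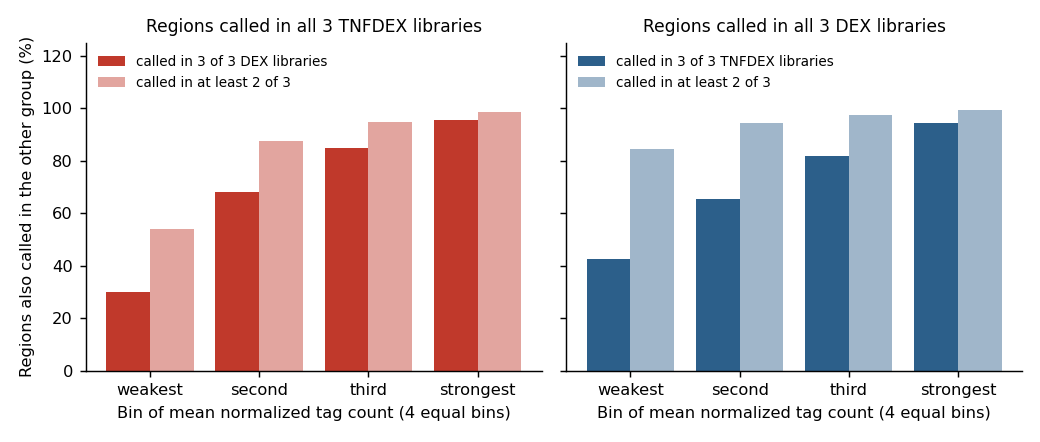
Share of regions called in all 3 libraries of a group that was also called in the other group, by bin of the mean normalized tag count (4 equal bins), for TNFDEX regions (left) and DEX regions (right). Dark bars need all 3 libraries of the other group and pale bars at least 2. The share runs between 29.9% and 95.5% for TNFDEX regions and between 42.5% and 94.5% for DEX regions, highest in the strongest bin.

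The 12 strongest shared regions included some at known glucocorticoid targets. The region with the highest mean was inside Zbtb16, which encodes a zinc finger repressor (chr9:48723703-48723882). It had 737.8, 610.5 and 1157.9 normalized tags in TNFDEX 1 to 3, against 524, 612.8 and 1176.1 in DEX 1 to 3. The values of both groups covered the same range, and the scaled log2 change was 0.01 ± 0.31 (SE, limma adjusted p = 0.999), at -0.43 in libraries with 1 mitochondrial peak and -0.04 with 2. A region inside Bcl2l1, an anti-apoptotic gene of the BCL2 family, had 848.9, 471.6 and 811.2 tags in TNFDEX and 643.5, 828.5 and 788.4 in DEX. Its log2 change was -0.60 with 1 mitochondrial peak and 0.10 with 2. A region 12.7 kb from Armc12 lies within 50 kb of Fkbp5, which encodes a co-chaperone that restrains GR. It had 596.4, 353.9 and 699.8 tags in TNFDEX, against 641, 759.6 and 680.2 in DEX. Its log2 change was -0.54 ± 0.27 (SE, limma adjusted p = 0.765), at -1.04 in libraries with 1 mitochondrial peak and near 0 with 2. The other 9 of the 12 strongest regions lay at Gm33049, Cblb, Hmcn2 (beside Ass1), Grhl2, Nek7, Slc45a1, Armc12, Foxp1 and Rab4a. Across all 12 the log2 change ranged between -0.54 and 0.51, and none passed the threshold.

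Signal was tested at the 4018 shared regions with limma on log2 normalized tag counts scaled by trimmed means (TMM), at a Benjamini-Hochberg adjusted p under 0.05. With group as the only term, 1 region was higher in TNFDEX (0.0249% of those tested) and 0 were lower (0%), while 258 had an unadjusted p under 0.05. That region lies on chr19:21947945-21948163, 89.7 kb from Cemip2, which encodes a cell-surface hyaluronidase. It had 100.4, 41.8 and 63.7 normalized tags in TNFDEX 1 to 3, against 12.9, 10.2 and 15.1 in DEX 1 to 3. Every TNFDEX value was above every DEX value, and the log2 change was 2.21 ± 0.27 (SE, limma adjusted p = 0.0487). It was 2.32 in libraries with 1 mitochondrial peak and 2.22 in those with 2, and no NI or TNF library had a peak there. The call rests on the setting. Leaving out TNFDEX 2, TNFDEX 3, DEX 1 or DEX 2 left 0 regions higher, leaving out TNFDEX 1 gave 5, and leaving out DEX 3 gave 17 higher and 7 lower. Values scaled by library totals alone also left 0.

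In tag signal at the shared regions, samples of the same mitochondrial number resembled each other more than samples of the same treatment. Correlations of log2 tags over the shared regions were 0.950 and 0.961 for pairs alike in both, between 0.885 and 0.931 for pairs of different groups with the same number, and between 0.796 and 0.823 for pairs of the same group with different numbers. Calls did not separate in this way. Regions called in both libraries, as a fraction of those called in either, were 0.298 to 0.519 for different groups with the same number. They were 0.243 to 0.407 for the same group with different numbers. These are descriptions over regions that share their libraries. With that number as a term in the fit, 28 regions were higher in TNFDEX (0.697% of those tested) and 1 was lower (0.0249%). The 28 changes ranged between 0.93 and 2.27 on the log2 scale. All 28 were positive both in the libraries with 1 and in those with 2 mitochondrial peaks, which the choice by this fit favours. In 25 of the 28, the scaled values of the groups did not overlap. The count of higher regions in this fit was 57 without TNFDEX 1, 12 without TNFDEX 3 and 13 without DEX 2, and the count of lower regions was 8 without TNFDEX 1, 2 without TNFDEX 2 and 21 without DEX 3. It was 0 on library totals alone, with a lowest adjusted p of 0.0611. With the replicate number as a block, 19 were higher and 0 lower, and 16 of the 19 were among the 28.

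**Figure D3:**
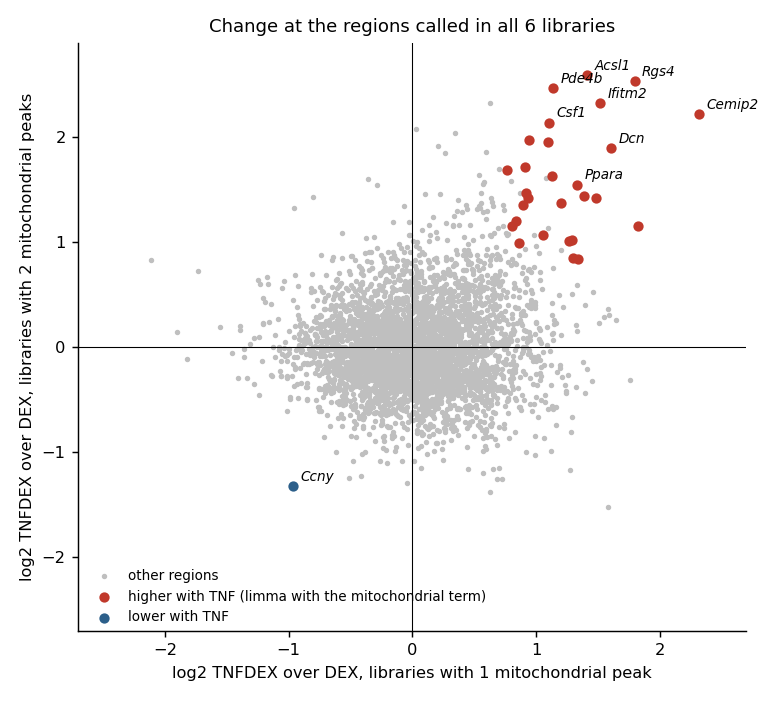
Scaled log2 change of TNFDEX over DEX at the 4018 shared regions in libraries with 1 mitochondrial peak (x axis) and with 2 (y axis). Red points are the 28 regions called higher and the blue point the 1 called lower by limma with the mitochondrial peak number as a term, and names give the nearest gene. Most regions lie near 0 on both axes and all 28 red points lie above 0 on both.

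Of the 28 regions, 5 are described first whose nearest gene acts in cytokine or immune signalling, an assignment by distance alone and chosen after the calls were seen. A region inside Ifitm2, an interferon-induced transmembrane protein gene, 0.61 kb from its start (chr7:140956475-140956668) had 188.7, 144.3 and 209.7 tags in TNFDEX, against 33.2, 42.3 and 47.4 in DEX. The groups were far apart, with a log2 change of 1.92 ± 0.23 (SE, limma with the mitochondrial term, adjusted p = 0.00462), while the fit on group alone gave an adjusted p of 0.0533. Csf1, which encodes the macrophage growth factor M-CSF, held a region with 85, 50.1 and 92.5 tags in TNFDEX, against 19.8, 25.5 and 21.1 in DEX. Its log2 change was 1.62 ± 0.24 (SE, limma with the mitochondrial term, adjusted p = 0.01) with an adjusted p of 0.0993 on group alone. Irak3 encodes an inhibitor of interleukin-1 and Toll-like receptor signalling. Its region had 81.3, 41.5 and 72.8 tags in TNFDEX, against 21.3, 29.1 and 29.3 in DEX, without overlap. Map3k13, which encodes a kinase upstream of JNK, lay 2.63 kb from a region with 119, 53.2 and 100.3 tags in TNFDEX and 24.3, 31.6 and 49.1 in DEX. For Irak3 and Map3k13 the limma adjusted p was 0.0222 and 0.0192 with the mitochondrial term, and 0.209 and 0.132 on group alone. Tnfrsf13b, a receptor gene of the TNF receptor family, was also among the 28, with 29.4, 27 and 50.6 tags in TNFDEX and 7.9, 10.7 and 25.4 in DEX. Its limma adjusted p was 0.0492 with the mitochondrial term and 0.495 on group alone, and after TMM scaling the groups overlapped.

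A further 4 of the 28 were nearest to genes of lipid metabolism and intracellular signalling, again picked by their role once the calls were known. Ppara encodes the fatty acid-sensing nuclear receptor of the liver. A region inside it (chr15:85776795-85777009) had 280.8, 213.5 and 354 tags in TNFDEX, against 52.5, 76.5 and 128.4 in DEX. Every TNFDEX value exceeded every DEX value, with a log2 change of 1.44 ± 0.19 (SE, limma with the mitochondrial term, adjusted p = 0.00642) and an adjusted p of 0.101 on group alone. Acsl1, which encodes a long-chain acyl-CoA synthetase, lay 61.9 kb from a region with 90.4, 51.2 and 91.3 tags in TNFDEX and 17.4, 21.4 and 15.5 in DEX. Rgs4, a regulator of G-protein signalling, lay 4.92 kb from a region with 79.6, 32.1 and 55.1 tags in TNFDEX, against 11.9, 14.3 and 9.9 in DEX. Pde4b, which encodes a phosphodiesterase that degrades cAMP, held a region with 61.8, 30.9 and 48.1 tags in TNFDEX and 17.8, 14.3 and 9.5 in DEX. The groups did not overlap at any of these, and the log2 changes with the mitochondrial term were 2.00 at Acsl1 and 2.17 at Rgs4 (limma adjusted p 0.00481 and 0.00157, and 0.0206 at Pde4b). On group alone the limma adjusted p was 0.0781 at Acsl1 and Rgs4 and 0.387 at Pde4b. The remaining regions were nearest to Dcn, Lpp, Pabpc2, Zscan25, Cd33, Zfp804a, Trp63, Zeb2, Wdr34, Pdhx, Pla1a, Faf2, Myo16, Nalcn, Slco1a5, Tubd1, Asap2 and Apobec1. Some of these lay far from the gene named, at 1254 kb for Zeb2, 90.8 kb for Pabpc2 and 66.3 kb for Lpp. Across the remaining regions the log2 changes with the term lay between 0.98 and 1.75.

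Of the 28 regions, 5 had a peak in a TNF library (17.9%, against 38.3% of the shared regions) and 1 had one in an NI library (3.57%, against 29.0% of the shared regions). By position, 14 were inside a protein-coding gene (50%, against 40.9% of the shared regions) and 1 lay within 1 kb of a gene start. The 1 lower region was 36 kb from Ccny, which encodes a cyclin. It had 9.5, 11.7 and 22.2 tags in TNFDEX and 9.9, 11.2 and 55.1 in DEX, so the deposited values overlapped and DEX 3 stood apart. Its log2 change was -1.14 ± 0.20 (SE, limma with the mitochondrial term, adjusted p = 0.0206), and on group alone without DEX 3 it was 0.04.

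Regions whose groups did not overlap were also counted, without a test. After TMM scaling, 298 regions had all TNFDEX values above all DEX values (7.42% of the 4018) and 221 had all below (5.5%). On the values as deposited the counts were 104 above (2.59%) and 5 below (0.124%). TMM divided TNFDEX 1 to 3 by 1.48, 0.643 and 1.23 and DEX 1 to 3 by 0.732, 0.964 and 1.21, and without it the median log2 change over the shared regions was 0.14 in place of -0.01. The split of higher and lower regions therefore depends on the scaling. Among the strongest of 4 equal bins of shared regions, 55 were above and 96 below after scaling, and among the weakest 86 were above and 32 below.

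None of the 10 most negative changes among regions without overlap passed the threshold of either fit. The most negative was 8.09 kb from Arnt2, with 44.4, 12.5 and 26.3 tags in TNFDEX and 33.7, 38.7 and 58.6 in DEX. Its log2 change was -0.95 ± 0.25 (SE, limma adjusted p = 0.404). A region inside Per1, a clock repressor gene, 0.453 kb from its start, had 101.6, 42.2 and 90 tags in TNFDEX, against 122.5, 111.7 and 101.7 in DEX. Here the deposited values did not overlap either, and the scaled log2 change was -0.77 ± 0.28 (SE, limma adjusted p = 0.657). Sesn1, a stress-response gene of the sestrin family, held a region with 41.9, 18.8 and 32.1 tags in TNFDEX and 32.2, 44.4 and 56.4 in DEX. The others of the 10 most negative were nearest to Klf14, Glp2r, Ndrg2, Tmcc3, Cuedc1, Slc38a2 and Smim20, at log2 changes between -0.87 and -0.69.

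**Figure D4:**
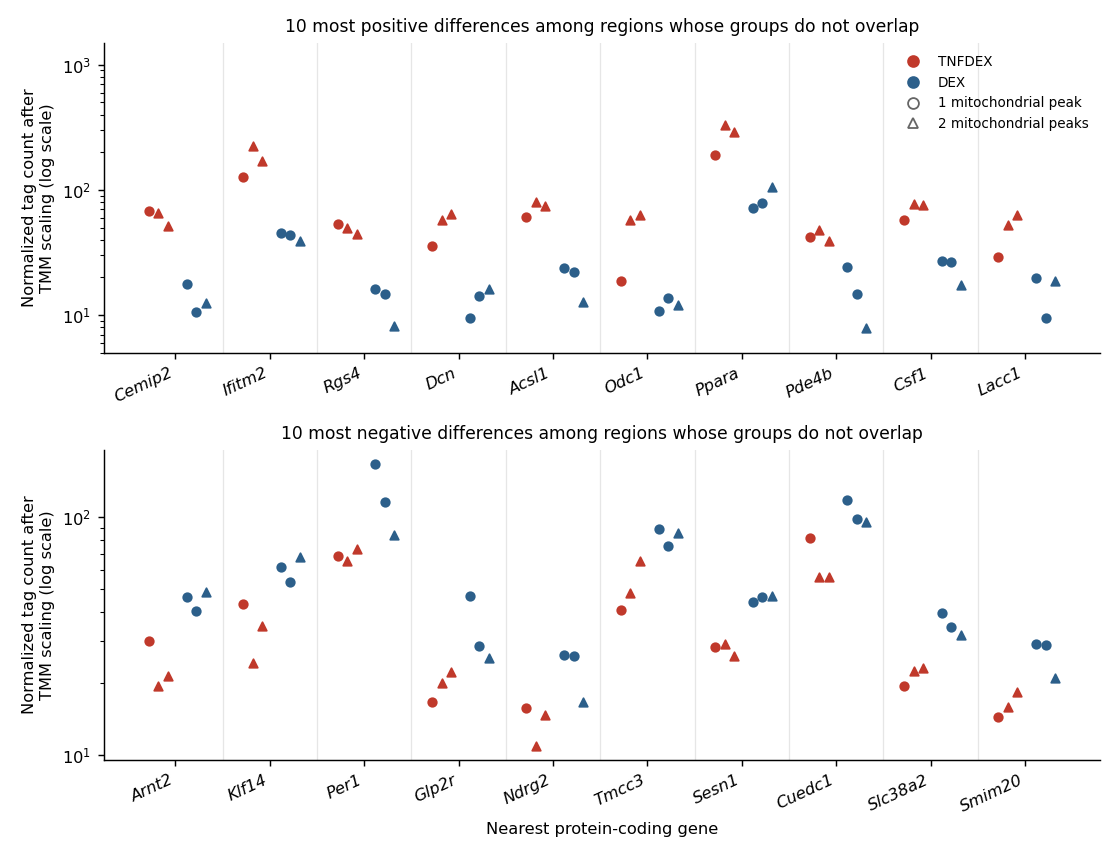
Normalized tag counts after TMM scaling (log scale) at the 10 regions with the most positive (top) and most negative (bottom) log2 change among those whose groups do not overlap. TNFDEX libraries are left and DEX libraries right in each column, with the nearest gene on the x axis. At Cemip2 the log2 change was 2.21 and at Arnt2 it was -0.95.

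Of the 35189 regions, 233 were gained with TNF (0.662%) and 22 were lost (0.0625%). Absence of a call leaves the level unknown, so these are counts without a test. Every TNFDEX library held more total tags than every DEX library, and the part of depth in these counts was not tested. The direction turned between the libraries with 1 and with 2 mitochondrial peaks. With 1 mitochondrial peak, 11628 regions were called in TNFDEX 1 but in neither DEX library, and 358 in both DEX libraries but not in TNFDEX 1. With 2 mitochondrial peaks, 582 were called in both TNFDEX libraries but not in DEX 3, and 3555 in DEX 3 but in neither TNFDEX library. These counts set 1 library against 2, so the side with 1 library meets the rule more easily. With the same 8639 strongest peaks in every library, 103 were gained and 67 lost. The number gained was 381 without TNFDEX 1, 1254 without TNFDEX 2, 361 without TNFDEX 3 and 850 without DEX 3. The number lost was 310 without TNFDEX 1, 51 without TNFDEX 3, 105 without DEX 1, 70 without DEX 2 and 266 without DEX 3. A rule over fewer libraries is easier to meet.

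The mean normalized tag count of gained regions in TNFDEX had a median of 13.2. Over the higher of the 2 group means, the median was 11.7 for all 35189 regions and 35.4 for shared regions. Of the 233 gained regions 47 were at 20 or above, against 8118 of all 35189. The strongest, 166.5 kb from Gm50595 (chr2:75285359-75285547), had 49.4, 57.1 and 89.6 tags in TNFDEX. Among the 10 strongest, 2 were nearest to phosphatase genes. Ptprr, which encodes a tyrosine phosphatase of MAP kinases, held a region with 49.8, 45.8 and 75.7 tags in TNFDEX. Dusp10, which encodes a phosphatase of JNK and p38, was the nearest gene, at 185.3 kb, to a region with 49.8, 40.3 and 67.4. A region 10.2 kb from Coa7, a mitochondrial assembly factor gene, had 61, 41.1 and 70.7. The region nearest BC029722, 0.022 kb from its start, had 36.9, 30.1 and 51 tags in TNFDEX and was also called in 2 TNF libraries and 1 NI library. The other strong gained regions were nearest to Parva, Cant1, Xxylt1, Gsx1 and Actl7b. Of all 233, 211 were called in neither NI nor TNF libraries, against 26980 of all 35189 regions and 2403 of the 4018 shared. Of the 233, 21 had a DEX peak within 1 kb.

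A larger share of lost than of gained regions lay near gene starts. Of the 22, 6 were within 1 kb of a gene start (27.3%), against 8 of the 233 gained (3.43%), 9.36% of all 35189 regions and 2.19% of the shared regions. A call in at least 1 NI library was found for 10 of the 22 (45.5%), against 13.7% of all regions and 29.0% of the shared. These counts were not tested. The strongest, 5.02 kb from Usp18, which encodes a protease that removes the interferon-induced modifier ISG15, had 29.7, 38.2 and 40.5 tags in DEX 1 to 3. Kcnh1, a potassium channel gene, held a region with 34.7, 29.6 and 32.3 tags in DEX, and Dlx3 lay 14.9 kb from one with 25.3, 30.1 and 17.2. Other regions among the 10 strongest were nearest to Fmn1, Adm, Trub1, Gm38457, Ccdc91 and Zfp407, and of the 22 lost regions 5 had a TNFDEX peak within 1 kb.

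Acute phase genes, which the liver raises in inflammation, were counted by whether a GR peak lay within 50 kb, without a test. Of 24 genes, 16, 18 and 16 had one in TNFDEX 1 to 3, against 10, 14 and 13 in DEX 1 to 3. Some of these genes share a region, so the counts are not of independent regions. The TNFDEX counts were 4 higher within the libraries with 1 mitochondrial peak and 4 higher with 2. Over all 21900 protein-coding genes the counts were 13274, 7906 and 10393 in TNFDEX and 9447, 11204 and 9546 in DEX, which overlapped. For all genes the TNFDEX minus DEX difference was 2948.5 with 1 mitochondrial peak and -396.5 with 2. A rise with 1 mitochondrial peak was therefore not particular to the list. A region in at least 2 TNFDEX libraries lay near 15 of the 24 (39.4% of all genes) and in at least 2 DEX libraries near 10 (36.4% of all genes). By that rule 6 genes (25%) had one in TNFDEX but not in DEX and 1, Hpx, in DEX but not in TNFDEX, against 8.63% and 5.64% of all genes; a call in 1 library of the other group was possible. Of the 6, Saa1, Saa2, Saa3 and Saa4, which encode serum amyloid A proteins, share 1 region 0.109 kb from Saa3, and the others were Lcn2 and Itih4.

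The Saa3 region had 17.4, 26.2 and 32.5 tags in TNFDEX 1 to 3, and 21.5 in DEX 3 alone among DEX libraries, so it was called in 1 of 3. Lcn2 encodes lipocalin-2, which binds bacterial siderophores. Its region, 0.559 kb away, had 10.8, 9 and 10.3 tags in TNFDEX and was called in no DEX library. Fga, Fgb and Fgg, the 3 fibrinogen genes, lie within 50 kb of the Fgb promoter region shown above, which had 18.2, 9.8 and 23 tags in TNFDEX and was called in no DEX library. A gained region lay near 4 of the 24 genes (Lcn2 and the fibrinogen genes), against 1.41% of all genes, and near none was a lost one, against 0.21%. None of the 5 shared regions near these genes passed the threshold. Lbp, which encodes the lipopolysaccharide-binding protein, had 281.2, 208.4 and 382 tags in TNFDEX and 147.7, 189.1 and 339.5 in DEX. The groups overlapped at Lbp, with a log2 change of 0.26, and a region inside Capn9, 16.6 kb from Agt, the angiotensinogen gene, was at -0.67 (limma adjusted p 0.87 and 0.527). A region 2.83 kb from Cp had 98.7, 54.4 and 96.2 tags in TNFDEX and 43.1, 52 and 59.9 in DEX. Its log2 change was 0.50 (limma adjusted p = 0.765). After scaling, the groups did not overlap at the Cp and Agt regions. Of the 5 shared regions, 4 had a log2 change above 0 and 1 below.

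**Figure D5:**
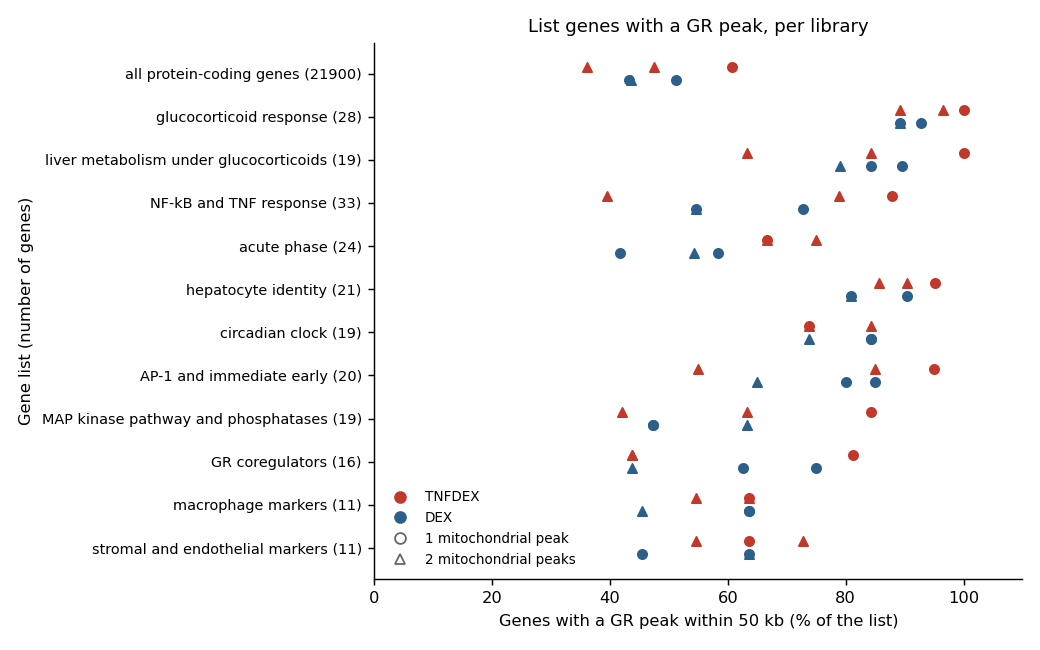
Share of each list's genes with a GR peak within 50 kb, per library, with TNFDEX above DEX in each row and marker shapes for the number of mitochondrial peaks. In the acute phase list all 3 TNFDEX libraries (66.7% to 75%) lie above all 3 DEX libraries (41.7% to 58.3%), and for all protein-coding genes the groups overlap.

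Genes of the NF-kB and TNF response showed a wide spread between libraries. Of 33, 29, 13 and 26 had a peak within 50 kb in TNFDEX 1 to 3, against 18, 24 and 18 in DEX 1 to 3, so the groups overlapped. The mean TNFDEX count was 8 higher in libraries with 1 mitochondrial peak and 1.5 higher with 2. For all genes these differences were 2948.5 and -396.5. By the rule of 2 libraries, 8 genes (24.2%, against 8.63% of all genes) had a region in TNFDEX but not in DEX, and 1, Rela, in DEX but not in TNFDEX (5.64% of all genes). The 8 were Nfkbib, Nfkb1, Tnfrsf1b, Traf1, Traf2, Cxcl1, Cxcl2 and Cxcl10, which encode an NF-kB inhibitor and subunit, a TNF receptor, its adaptors and chemokines. At 5 of the 8 the region was also called in 1 DEX library, with 9.2 tags in DEX 2 at Tnfrsf1b and 14.2 in DEX 3 at Traf2. Cxcl1 and Cxcl2 count the same region. The region at the Cxcl1 promoter, which is also within 50 kb of Cxcl2, had 28.2, 14.5 and 30.8 tags in TNFDEX and 11.2 in DEX 2, the only DEX library with a call. Traf1 held a region with 15.3, 11.7 and 20.1 tags in TNFDEX and 10.8 in DEX 3. Tnfaip3, which encodes the NF-kB inhibitor A20, was the nearest gene to 3 regions that were gained or had TNFDEX above DEX without overlap. Such regions made up 0.662% of all regions (gained) and 7.42% of the shared ones (no overlap after scaling). Ptpn1 and Rad51b were also nearest to 3 each. The gained ones of Tnfaip3 were weak, with 13.3, 7.8 and 7.4 tags in TNFDEX at 6.84 kb. The other, at 71.8 kb and so beyond 50 kb, had 19.1, 9 and 9.5. The shared region, 30.8 kb from the gene, had 35.7, 18.4 and 29.2 tags in TNFDEX and 8.9, 14.8 and 18.1 in DEX, with an adjusted p of 0.103 (limma with the mitochondrial term). The strongest region at Nfkbia, which encodes the inhibitor IkB-alpha and is a glucocorticoid target, had 248, 63 and 178.9 tags in TNFDEX, against 171, 205 and 162 in DEX. Of the 9 shared regions in this list, none passed the threshold, and 3 had a log2 change above 0.

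The classical glucocorticoid response genes carried GR regions in both groups. Of 28, 23 had a shared region within 50 kb (18.3% of all genes). None of their 57 shared regions passed the threshold in either fit. The median log2 change was -0.20, with 18 above and 39 below 0. Over all shared regions it was -0.01, and over the strongest of 4 equal bins of them it was -0.06. For the list it was -0.35 in libraries with 1 mitochondrial peak and -0.13 with 2. On library totals the median was -0.05, beside 0.14 over all. Zfp36, which encodes an mRNA-destabilising protein, had 468.6, 247.5 and 507.8 tags in TNFDEX and 291.5, 354.8 and 529 in DEX. A gained region lay within 50 kb of 2 of the 28, Nfkbia and Lcn2, against 1.41% of all genes. That of Nfkbia was 43.6 kb away and nearest to Psma6, with 14.1, 9.8 and 16.4 tags in TNFDEX. A lost one, with 9.9, 11.2 and 7.3 tags in DEX, lay near 1 gene, against 0.21% of all genes. This was Errfi1, a feedback inhibitor of EGF receptor signalling.

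Circadian clock genes had 10 shared regions. Their median log2 change was -0.41, with 2 above and 8 below 0, and none passed the threshold. It was -0.46 within libraries with 1 mitochondrial peak and -0.06 with 2, and -0.26 on library totals. The stronger Per1 region had 338.4, 179.9 and 369.6 tags in TNFDEX and 297.5, 397.7 and 335.6 in DEX. Per2, its paralog, had 126.5, 67.3 and 134.9 tags in TNFDEX, against 132.4, 149.9 and 145.2 in DEX, and the log2 change was -0.59 (limma adjusted p = 0.726). Only TNFDEX 3 among the TNFDEX values exceeded any DEX value at Per2. The region 24.9 kb from Dbp, a clock output factor gene, lies inside Sec1 and went the other way, with 94.1, 70 and 119.2 tags in TNFDEX, against 33.2, 46.9 and 50 in DEX. These values, named after they were seen, did not overlap, and the log2 change was 0.96 (limma adjusted p = 0.424).

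Liver metabolic genes under glucocorticoid control had 22 shared regions, with a median of 0.06, and the Ppara region was the 1 called higher with the mitochondrial term. Tat, which encodes tyrosine aminotransferase, had 76.7, 87.6 and 136.5 tags in TNFDEX, against 54.5, 61.2 and 115.9 in DEX, with a log2 change of 0.27 (limma adjusted p = 0.903). The direction turned, at -0.40 in libraries with 1 mitochondrial peak and 0.36 with 2. Sds, which encodes serine dehydratase, lay 30.6 kb from a gained region inside Slc8b1, with 17, 12.5 and 17.3 tags in TNFDEX. Genes of hepatocyte identity, such as Hnf4a, had 23 shared regions with a median of -0.03, and none passed the threshold.

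AP-1 and immediate early genes had 10 shared regions with a median of 0.11, and none passed the threshold. By the rule of 2 libraries, 4 of 20 genes (Fosl1, Atf3, Atf4 and Batf3; 20%, against 8.63% of all genes) had a region in TNFDEX but not in DEX, and 1, Egr1, in DEX but not in TNFDEX (5%, against 5.64%). Of these, the Atf3 region was also called in DEX 2 with 25 tags, above its 18.2 and 14 in TNFDEX 1 and 3. The Batf3 region was called in DEX 2 (14.3 tags), the Fosl1 region in DEX 3 (16.4 tags), and the Egr1 region in TNFDEX 1 (25.3 tags). Klf6 lay near a gained region with 18.7, 10.2 and 17.7 tags. In the list of MAP kinase pathway genes and phosphatases, Map2k3, which encodes a kinase of p38, held a gained region with 15.3, 19.9 and 36.6 tags. The 8 shared regions of that list had a median of 0.02, and none passed the threshold. Genes of GR coregulators, including Hsp90ab1, had 5 shared regions, all with a log2 change below 0 and a median of -0.17. None passed the threshold, and on library totals 1 of the 5 was above 0.

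Genes that mark other cell types also had GR peaks in these cells of 1 line. Of 11 macrophage genes, 7, 6 and 7 had a peak within 50 kb in TNFDEX and 7, 7 and 5 in DEX. Of 11 stromal and endothelial genes, the numbers were 7, 6 and 8 in TNFDEX and 5, 7 and 7 in DEX. The 1 region called higher in these lists with the mitochondrial term lay 37.0 kb from Dcn, which encodes the matrix proteoglycan decorin. It had 52.3, 36.8 and 78.9 tags in TNFDEX, against 6.9, 13.8 and 19.8 in DEX. Its limma adjusted p was 0.00481 with the mitochondrial term and 0.0781 on group alone. A shared region nearer Dcn, at 7.27 kb, had 64.3, 15.3 and 40.3 tags in TNFDEX and 45.1, 52 and 35.3 in DEX, with a log2 change of -0.50 (limma adjusted p = 0.805) and overlapping groups.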

How the data were processed

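The submitters' processing notes name HOMER 4.6, Bowtie 1.0.0, CASAVA 1.8 and the mouse build mm10. Per the file headers, peaks were called in each library separately against 1 input, at a false discovery rate of 0.001, 4-fold over input and over the surrounding 10000 bp, and a Poisson p-value of 0.0001. How reads were filtered is not given in the sources used here. The deposited normalized tag count is a signal per 20000000 tags, not a count, so no count model was used. The deposited fold over input (a ratio) set the 8-fold alternative; the authors' deposited p-value, score and focus fraction columns entered no test.

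Peaks sharing at least 1 bp were merged. Log2 values at regions called in all 6 libraries, without a pseudocount, were scaled by TMM and tested with limma 3.58.1 (R 4.3.3), group as the only term; the procedure was checked on simulated data. Single values per library used exact permutation tests. The smallest list (8639 peaks) and the 4-fold minimum limit what could be called. Distances refer to the GRCm38.p6 gene table; all 216 genes of the 11 lists matched. The members, lists and tests were chosen with earlier results of these data known. Regions named were the 12 strongest shared, those past a threshold, the 10 strongest gained and lost, the 10 most positive and negative without overlap, and up to 4 genes a list. The planned search of regions for motifs needed a genome and was replaced by promoter windows. Alternatives included other scalings, stricter peaks, left-out libraries and the replicate number as a block. Same-numbered libraries had deviations correlated at 0.367, -0.364 and 0.572, so the numbers were not taken as pairs.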

Additional observations from a re-analysis of the deposited data

Results flagged for a closer look

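The effect of TNF on the GR signal differed between libraries with 1 and with 2 mitochondrial peaks at 2 of the 4018 shared regions, by a limma interaction of group and mitochondrial peak number (708 regions at an unadjusted p under 0.05). This test has 2 arms of a single library each, TNFDEX 1 with 1 mitochondrial peak and DEX 3 with 2. Its spread comes from the other 4 libraries, and the lone libraries are assumed to vary like them. At the region inside Serpinb11, a serpin gene (chr1:107375245-107375469), values were 52.7, 9 and 23.4 normalized tags in TNFDEX 1 to 3 and 10.4, 9.7 and 56.9 in DEX 1 to 3. The difference there rests on TNFDEX 1 and DEX 3, the lone libraries. The log2 change was -1.52 with 2 mitochondrial peaks and 1.58 with 1, a difference of -3.10 (adjusted p = 0.0339). At the region inside Tex14, a gene of germ cell bridges (chr11:87443368-87443715), values were 10.8, 7.8 and 13.2 in TNFDEX and 25.3, 28 and 7.8 in DEX. The log2 change was 0.83 with 2 and -2.11 with 1, a difference of 2.94 (adjusted p = 0.0222).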

How the results depend on the processing

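The numbers of higher and lower regions depended on the settings. Against 1 higher and 0 lower, the mitochondrial term gave 28 and 1, and the replicate block 19 and 0. Quantile scaling, a pseudocount of 5 and peaks of at least 8-fold each gave 2 higher, regions called in at least 2 libraries per group gave 5, and library totals or a mean of at least 20 gave 0. Leaving out 1 library gave 0 to 17 higher and 0 to 7 lower. With the mitochondrial term (these combinations were added after the data were seen), library totals gave 0 higher, quantile scaling 25, a mean of at least 20 gave 25, 8-fold peaks 16, 2 libraries per group 58 higher and 13 lower, and leaving out 1 library 12 to 57 higher (27 without TNFDEX 2, 26 without DEX 1, 30 without DEX 3) and 0 to 21 lower. Same-numbered libraries were not taken as pairs, and the replicate block changed no other call (peak number 0.21, exact permutation p = 0.75).

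With 2 mitochondrial peaks, log2 peak number was -0.23 and tags in peaks -0.55, and the shares near gene ends, beyond 50 kb and inside genes were 0.605, -1.02 and 0.281 points. Leaving out 1 library gave log2 peak number -0.13 to 0.56 and tags in peaks -0.21 to 0.68. Gained regions were 254 to 1254, and lost regions 23 to 310, with 1 library left out; the same number of strongest peaks gave 103 and 67, and 8-fold peaks gave 14 lost. The share of DEX regions in TNFDEX was 53.0% to 92.0% with 1 library left out and 76.1% with equal peak numbers. With 1 library left out, at least 2 calls were still required, so both remaining libraries of that group had to call a region. The Ccny change was -0.945 to 0.0388 with 1 library left out. The causes were not tested. With 3 libraries a group no permutation p below 0.1 was possible, and weak peaks near the calling threshold limit gained and lost calls.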
